A study of Mus musculus with 2 samples.

Results

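Of the 2374 FOS peaks that the authors called in mouse granulosa cells, 360 (15.2%) carried the class promoter-TSS in the authors' annotation, and those 360 peaks are described here. The members were taken by this class alone, with no threshold on the score or the width. The class is that of HOMER's annotatePeaks program, whose default promoter reaches from 1000 bp upstream to 100 bp downstream of a transcription start site (TSS). The authors' own setting is not stated in these sources. The cells came from wild-type female mice, 25 days old, primed with PMSG (a gonadotropin preparation that makes follicles grow) and given hCG, which acts on the LH receptor, 3 h before the ovaries were taken. Granulosa cells were released by puncturing the follicles, fixed with formaldehyde and sonicated, and 1 library was made with a FOS antibody. The series holds 2 libraries, and the other, whose label names no antibody, was not analysed here. With 1 library there is no replicate, no untreated time point and no test, so the values below are descriptions, and the exact 95% Clopper-Pearson intervals given in places cover counting error only. The depth is unknown, because the table lists no counts of reads.

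FOS is an immediate early transcription factor that pairs with a JUN protein to form AP-1. The palindromic site of AP-1 was searched for here as TGANTCA, where N is any base. Related dimers that include CREB or ATF proteins prefer the longer CRE, TGACGTCA. In granulosa cells the LH surge raises FOS and other early factors, which precede the genes of ovulation, of matrix expansion and of progesterone synthesis. A promoter is the stretch around a TSS where the transcription machinery assembles, and many mammalian promoters are divergent, with a second gene that starts close by and is transcribed the other way.

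The peak that carried the second highest score of the set, at the promoter of Srxn1, holds 2 AP-1 motifs. Of the other members shown just below, Prdx1 and F3 also hold 2 and the rest 1 each. Some high-scoring members hold none in the part of the peak that could be read, such as Ndufa5 (197) and Ppp1r11 (190). The sequences below come from RefSeq's promoter table for mouse assembly GRCm38.p6, which is mm10, and are written 5′ to 3′ along the gene's strand, with the AP-1 motifs in capitals. They show where the motif lies beside members of different function. The genes outside the naming rule (Tomm20, Ist1, Cacul1, Ezr, F3 and Anxa2) were chosen after their values were seen. Srxn1 encodes sulfiredoxin, which repairs overoxidised peroxiredoxins, Prdx1 encodes such a peroxiredoxin, and Tnfaip6 encodes a protein that links hyaluronan in the cumulus matrix. Ddit3 encodes CHOP, a transcription factor of the unfolded protein response, Myl12a a regulatory light chain of nonmuscle myosin, and Tomm20 a receptor for protein import into mitochondria.
Srxn1, chr2:152105374-152105493, plus strand: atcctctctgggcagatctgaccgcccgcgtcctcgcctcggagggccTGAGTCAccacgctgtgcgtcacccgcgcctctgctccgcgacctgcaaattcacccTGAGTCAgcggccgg
Tnfaip6, chr2:52037933-52038052, plus strand: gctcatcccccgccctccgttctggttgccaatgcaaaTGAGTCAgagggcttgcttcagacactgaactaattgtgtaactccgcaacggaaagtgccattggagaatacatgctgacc
Ddit3, chr10:127290543-127290572, plus strand: cgcgcgcaTGACTCActcacctcctccgcg
Myl12a, chr17:71002624-71002713, minus strand: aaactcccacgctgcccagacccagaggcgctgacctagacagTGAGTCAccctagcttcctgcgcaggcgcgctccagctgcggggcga
Prdx1, chr4:116685354-116685493, plus strand: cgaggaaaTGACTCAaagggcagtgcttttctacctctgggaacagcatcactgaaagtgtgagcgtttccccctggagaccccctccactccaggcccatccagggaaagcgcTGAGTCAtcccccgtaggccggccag
Tomm20, chr8:126946012-126946101, minus strand: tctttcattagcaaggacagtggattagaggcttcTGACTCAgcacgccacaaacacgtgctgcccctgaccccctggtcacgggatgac
Ist1, chr8:109693385-109693474, minus strand: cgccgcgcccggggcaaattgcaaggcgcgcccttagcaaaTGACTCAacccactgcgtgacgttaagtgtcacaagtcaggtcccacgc
Cacul1, chr19:60581034-60581123, minus strand: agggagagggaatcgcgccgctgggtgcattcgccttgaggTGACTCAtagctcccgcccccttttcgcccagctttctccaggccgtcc
Ezr, chr17:6782781-6782860, minus strand: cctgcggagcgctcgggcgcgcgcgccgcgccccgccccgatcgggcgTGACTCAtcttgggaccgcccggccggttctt
F3, chr3:121723357-121723446, plus strand: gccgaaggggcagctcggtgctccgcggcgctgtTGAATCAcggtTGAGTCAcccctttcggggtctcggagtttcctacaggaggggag
Anxa2, chr9:69453543-69453632, plus strand: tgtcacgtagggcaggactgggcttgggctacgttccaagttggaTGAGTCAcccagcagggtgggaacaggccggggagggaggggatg

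In Rtn4 and Kbtbd7 the motif lies just downstream of the listed start, inside the transcribed region, and only a short site is shown for each. Rtn4 encodes a reticulon that shapes the endoplasmic reticulum, and Kbtbd7 a BTB-kelch protein.
Rtn4, chr11:29692902-29692930, plus strand: tgccgggaaggTGAGTCAcgccaaactgg
Kbtbd7, chr14:79426534-79426560, plus strand: aagggaaacagTGAGTCAgccggggac

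Other members hold no AP-1 motif in the promoter window but other motifs. Maff, which encodes a small MAF protein, has a CRE close to its start. Nr4a1, an orphan nuclear receptor gene induced early by LH, has TGACG, the first part of a CRE, which reads CGTCA on the other strand. Hsp90b1, the gene of an endoplasmic reticulum chaperone, has 5 CCAAT boxes (ATTGG on the other strand), and its peak is classed to Ttc41. Those motifs are in capitals.
Maff, chr15:79347490-79347519, plus strand: gTGACGTCActgcatgactgggtttttatg
Nr4a1, chr15:101266794-101266823, plus strand: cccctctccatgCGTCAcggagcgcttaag
Hsp90b1, chr10:86705525-86705694, minus strand: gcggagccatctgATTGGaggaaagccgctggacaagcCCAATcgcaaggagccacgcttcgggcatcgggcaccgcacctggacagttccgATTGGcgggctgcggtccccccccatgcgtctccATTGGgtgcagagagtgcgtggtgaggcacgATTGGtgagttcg

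Promoter peaks lay mostly just upstream of the TSS. The distance given by the authors runs from the peak centre to the TSS of the assigned gene, negative upstream. For 348 members centred within 1000 bp of that TSS the median distance was -121.5 bp, with quartiles of -329.5 and -25.75 bp. Of all 360 members, 287 (79.7%, interval 75.2 to 83.8%) were centred upstream, and 200 (55.6%) had the TSS inside the peak interval. The best filled 100 bp step was the one directly upstream of the TSS, with 82 peaks, followed by the next step upstream with 74 and the first step downstream with 47. Another 99 members (27.5%) were centred more than 300 and up to 1000 bp upstream. The class itself favours upstream positions, since it ends closer to the TSS on the downstream side.

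**Figure D1:**
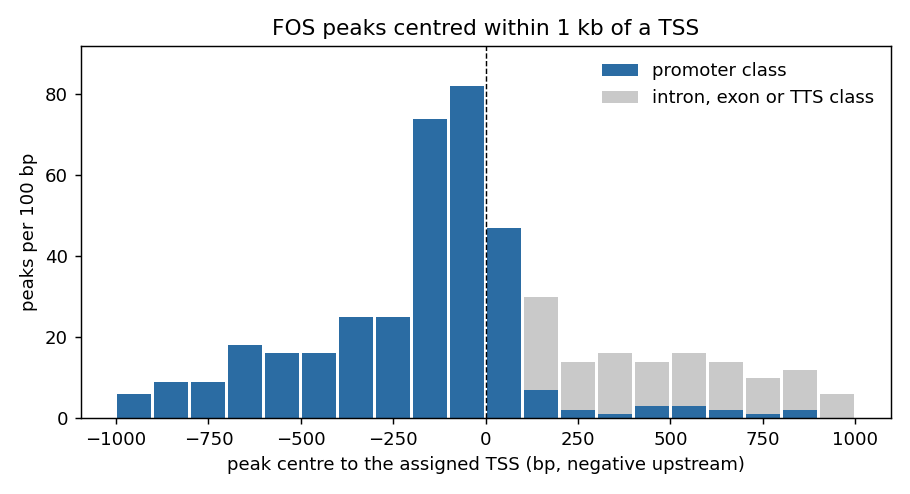
Number of FOS peaks per 100 bp of distance from the peak centre to the assigned TSS, with peaks of the promoter class in blue and peaks of the intron, exon or TTS (transcription termination site) classes stacked in grey. The promoter class fills the upstream side and the first step downstream, with its highest bar of 82 peaks directly upstream of the TSS, and the 111 grey peaks all lie downstream.

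The edges of the class were sharp in the file. Just inside the upstream edge lay the peak of 9330111N05Rik at -987 bp (score 141), and just outside it the peak of Mknk2 at -1008 bp (score 103), which is classed as intergenic. Downstream, Cep97 at +98 bp (score 42) was inside and Clu at +103 bp (score 215) was outside, in an exon. A further 111 peaks were centred within 1000 bp of a TSS but fell outside the class, all of them downstream, with 74 in introns, 32 in exons and 5 at a TTS. Their median score was 58, against 64 for the promoter class.

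Not every member was close to the TSS of the gene it was assigned to. For 327 members (90.8%) the distance lay between -1000 and +100 bp, 21 were centred more than 100 and up to 1000 bp downstream and 12 lay beyond 1000 bp. In 17 of the 21 downstream cases the class named another gene than the distance column, so the peak was in the class through a neighbour. Some of these centres, such as that of Ppp1r15a at +808 bp, were not close to either start. Midn (+535 bp), Emp3 (+655 bp), Rnf4 (+571 bp) and Ttbk2 (+107 bp) were classed to their own gene. For 10 of the 12 distant members another listed start of the same gene lay within 1000 bp. Lmna, the gene of the nuclear lamins A and C, is one: its peak (score 188) was centred at -10.32 kb by the authors' distance and at -280 bp from a nearer listed start. Jmjd1c, of the JmjC family of histone demethylases, had its peak at +58.409 kb from the assigned TSS and at -83 bp from another. Tpm1, a tropomyosin gene, and 4930511A08Rik, whose peak is classed to Magi1, were the exceptions.

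The members centred nearest to their TSS, all within 3 bp, were Etnk2 at 0 bp (score 104), Nfx1 at -1 bp (score 77), Adam10 at -2 bp (score 124), Sap30bp at 3 bp (score 86), Gm4013 at -3 bp (score 60) and Gm10052 at 3 bp (score 57). Etnk2 encodes an ethanolamine kinase and Adam10 a membrane protease that sheds the extracellular part of other proteins. Position said little about the score: across the 348 members within 1000 bp the rank correlation of the score with the absolute distance was 0.0615. The median score was 70 for members more than 300 bp upstream, 62 for those more than 100 and up to 300 bp upstream and 64 for those within 100 bp on either side.

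The peak score is the authors' value for each peak, on a scale that the sources used here do not state, and it ranks peaks within this list only. Scores of promoter peaks ran from 13 to 386 with a median of 64 (interval 58 to 68) and quartiles of 42 and 102. The other 2014 peaks had a median of 67 (interval 66 to 70) and a maximum of 2234, and the highest promoter peak ranked 12 in the whole list. Promoter peaks made up 13 of the 100 highest-scoring peaks and 93 of the 593 highest (15.7%), close to their 15.2% share of the whole list.

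The highest promoter score, 386, belonged to Nt5dc3, a gene of the nucleotidase-domain family, with a peak centred 484 bp upstream of the TSS (chr10:86778285-86778757). Srxn1 followed with 374 at -120 bp (chr2:152105141-152105667) and Tnfaip6 with 355 at -104 bp (chr2:52037794-52038225). Rtn4 (307, +25 bp), Stk40 (292, -666 bp) and Ddit3 (266, -271 bp) came next. Kbtbd7 had 265 at +12 bp, and Spag9, a scaffold for JNK signalling, 248 at -832 bp. Nr1d1, the gene of the circadian repressor REV-ERB alpha, had 221 at -673 bp, and Myl12a 204 at -199 bp. These 10 members were spread over the whole class, from Spag9 near the upstream edge to Rtn4 and Kbtbd7 just downstream of the TSS. At the low end were A930005H10Rik (13, classed to Dph5), Cry2 (15), Rnu11 (17), Cnot1 (18) and Homer1 (19), the last tied with Tmem39a and 1700123M08Rik.

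Promoter peaks were as wide as the other peaks of the list, with a median of 342 bp in both sets. The widths of promoter peaks ran from 268 to 1114 bp. Exactly 268 bp, the narrowest width in the list, was found for 37 promoter peaks (10.3%) and 162 of the 2014 others (8.04%). Star, which encodes the protein that moves cholesterol into mitochondria for steroid synthesis, was the highest-scoring of those 37 (score 81), followed by Rmdn3 (78), Rc3h1 (67), and Arhgap18 and Zswim7 (62 each). The widest promoter peak was at Kdm3a, a histone demethylase gene, with 1114 bp but a score of only 57. Ercc1 (686 bp), Gm5532 (664 bp), Nr1d1 (644 bp) and Tfg (620 bp) came after it. Width rose with the score across promoter peaks, with a rank correlation of 0.446, and likewise across the other peaks, with 0.475.

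**Figure D2:**
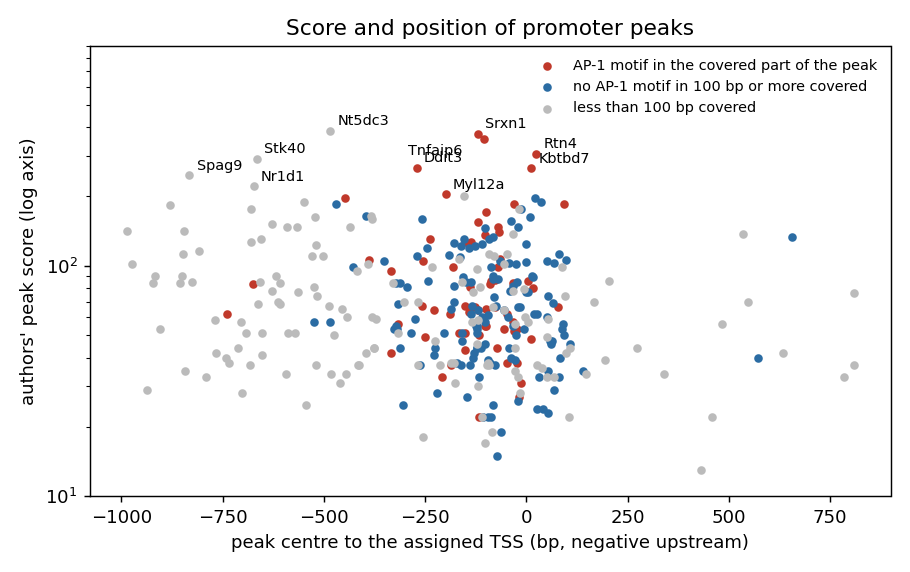
Authors' peak score (log axis) against the distance from the peak centre to the assigned TSS for the promoter peaks within 1000 bp, each point 1 peak, with the 10 highest named. Red points hold an AP-1 motif in the part of the peak that the 300 bp promoter window covers, blue points have at least 100 bp covered and no motif, and grey points have less than 100 bp covered; high scores occur at -832 bp (Spag9) as well as at +25 bp (Rtn4).

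A larger share of these promoters held an AP-1 motif than of promoters at large. Sequence was available only for a window of 300 bp at each listed start, 250 bp upstream and 50 bp downstream, and for 295 of the 360 members (81.9%). The motif TGANTCA, which is the same on both strands, was found in 68 of the 272 windows of protein-coding genes with a promoter peak, 25.0%, against 1239 of the 17492 windows of all protein-coding genes, 7.08%. Where 100 bp or more of the peak lay in the window, which held for 208 members, 68 (32.7%, interval 26.4 to 39.5%) had an AP-1 motif inside the peak, and 7 of these had more than 1. Counted only over the 163 members centred inside their window, coding or not, the share of windows with the motif was 38.7%, against 25.1% over all 295. Of the 81 AP-1 motifs in the members' windows, 76 lay inside the peak, at a median of 36.5 bp from its centre. Peaks reached 229 of the 295 windows and covered a median of 252 bp of these. Much of the window sequence was thus inside a peak, and the count inside that this alone would give was not computed. The window has no sequence for peaks centred far upstream, such as those of Nt5dc3, Stk40, Spag9 and Nr1d1, so the motif could not be looked for there.

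The motif was concentrated near peak centres. In the 124 protein-coding members whose central 100 bp lay within the window, 28 (22.6%, interval 15.6 to 31.0%) held AP-1 there, against 2.52% of all protein-coding windows read at the same offsets. The densest step was 10 to 30 bp downstream of the peak centre, with 10.2 motifs per 100 windows, and beyond 110 bp on either side there were at most 1.77 per 100. The middle base of the palindrome was C or G in 30 of 34 motifs near a centre (88.2%) and in 832 of 1302 motifs in all windows (63.9%). CCAAT boxes, by comparison, were spread over the whole range.

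**Figure D3:**
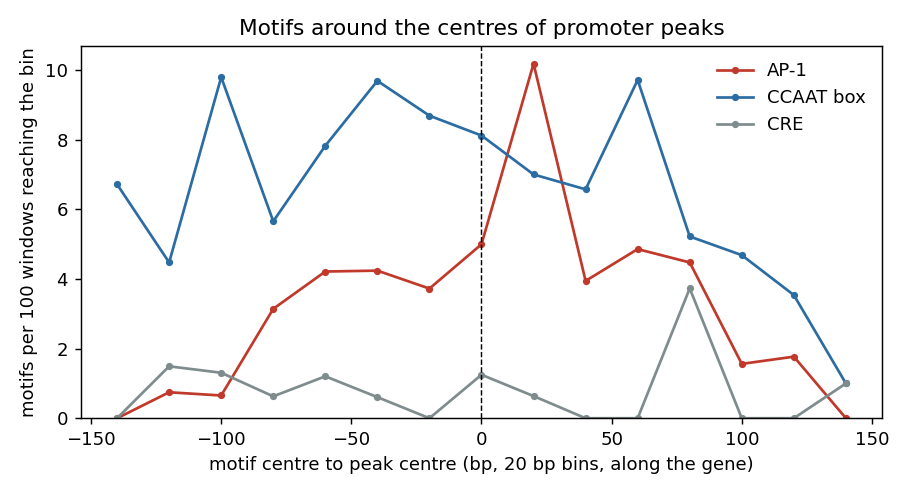
Motifs per 100 promoter windows that reach each 20 bp step, against the distance of the motif from the peak centre along the gene, for AP-1, the CCAAT box and the CRE. AP-1 has its highest value, 10.2, in the step 10 to 30 bp downstream of the centre, while the CCAAT box has no single maximum there.

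Of the 10 highest-scoring members 6 had 100 bp or more covered, and these 6 all held AP-1 in the peak: 2 motifs in Srxn1, at -99 and -42 bp from the start, and 1 each in Tnfaip6 (-139 bp), Rtn4 (+18 bp), Ddit3 (-239 bp), Kbtbd7 (+37 bp) and Myl12a (-134 bp). Of the 10 highest-scoring members with that much covered 7 held the motif, and of the 20 highest 11 did (55.0%). When the 208 covered members were ordered by score, the motif occurred in 21 of the first 52 (40.4%), 18 of the next 52 (34.6%), 20 of the next 52 (38.5%) and 9 of the last 52 (17.3%). The first 3 groups of this order were alike, and the last, with scores of 15 to 46, was below them, with an interval (8.23 to 30.3%) that overlapped theirs. The members with AP-1 within 50 bp of the centre had a median score of 71.5 (32 members, interval 56 to 107), and those without one 62 (100 members, interval 53 to 67), so that the intervals overlapped.

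Most of these promoters were rich in CpG. By the usual criteria (GC content of at least 50% and an observed-to-expected CpG ratio of at least 0.6) 195 of the 272 member windows (71.7%) were CpG-rich, against 45.7% of all protein-coding windows. Within CpG-rich windows AP-1 was found in 18.5% of members and 3.20% of all genes, and in the other windows in 41.6% and 10.4%, so the members had the larger share in both kinds of window. For the GC box, GGGCGG, the order did not hold in both: it was in 65.8% of member windows and 46.3% of all windows, but within CpG-rich windows in 73.3% and 76.8%. In the other windows it was in 46.8% of members and 20.6% of all genes. Promoters active in these cells were not singled out in the comparison set, and the part that open chromatin plays in these shares was not tested.

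Among the other motifs, the CRE was in 6.62% of member windows and 2.34% of all, and its first part TGACG in 48.2% and 23.8%. The E-box CACGTG was in 18.01% and 7.90%, the ETS motif CCGGAAG in 18.4% and 11.9%, and the YY1 motif AAGATGGC in 7.35% and 3.22%. Within CpG-rich windows the ETS motif was in 22.6% of members and 20.2% of all, and in the other windows in 7.79% and 4.91%. Within 50 bp of peak centres it was in 4.84%, against 4.31% of all windows at the same offsets. The antioxidant element core TGACNNNGC, the site of NRF2 with small MAF proteins, was in 23.5% and 13.2%, and it shares its first letters with the CRE. It can also coincide with AP-1, since TGACTCAGC, as in the Tomm20 sequence above, matches both, so the counts of these motifs are not separate. CCAAT boxes were at 39.7% and 39.0% over whole windows. Near peak centres (within 50 bp) they were in 26.6% (interval 19.1 to 35.3%), against 18.6% of all windows at the same offsets. TGACG was there in 25.8% and 9.61%, CACGTG in 10.5% and 2.92%, and the antioxidant core in 11.3% and 4.58%. For the CRE these shares were 2.42% and 0.942%. Motifs of factors central to granulosa cells were about as frequent as in all promoters or less so: the NR5A motif CAAGGTCA was in 1.47% and 1.34%, the GATA motif AGATAA in 5.51% and 9.96%, the RUNX motif TGTGGT in 13.2% and 15.1%, and the C/EBP palindrome TTGCNNAA in 8.82% and 10.1%. Within 50 bp of peak centres, against all windows at the same offsets, NR5A was in 0.806% and 0.393% and GATA in 1.61% and 3.38%. RUNX was there in 6.45% and 5.09%, and C/EBP in 4.03% and 3.47%. Over whole windows, the TATA box TATAAA was in 10.3% and 13.3%, and the TEAD motif GGAATG in 11.8% and 13.4%. In CpG-rich windows TGACG was in 56.4% of members and 36.2% of all, and CACGTG in 21.0% and 11.7%. The antioxidant core was there in 26.2% and 15.8%, and the CRE in 8.21% and 3.93%. In windows that were not CpG-rich TGACG was in 27.3% and 13.4%, and CACGTG in 10.4% and 4.72%. The antioxidant core was in 16.9% and 11.0% of those, and the CRE in 2.60% and 1.01%. The YY1, NR5A, GATA, RUNX, C/EBP, TATA and TEAD motifs were not split by CpG content. Both strands were searched for each motif, and a match of letters is not a bound site.

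**Figure D4:**
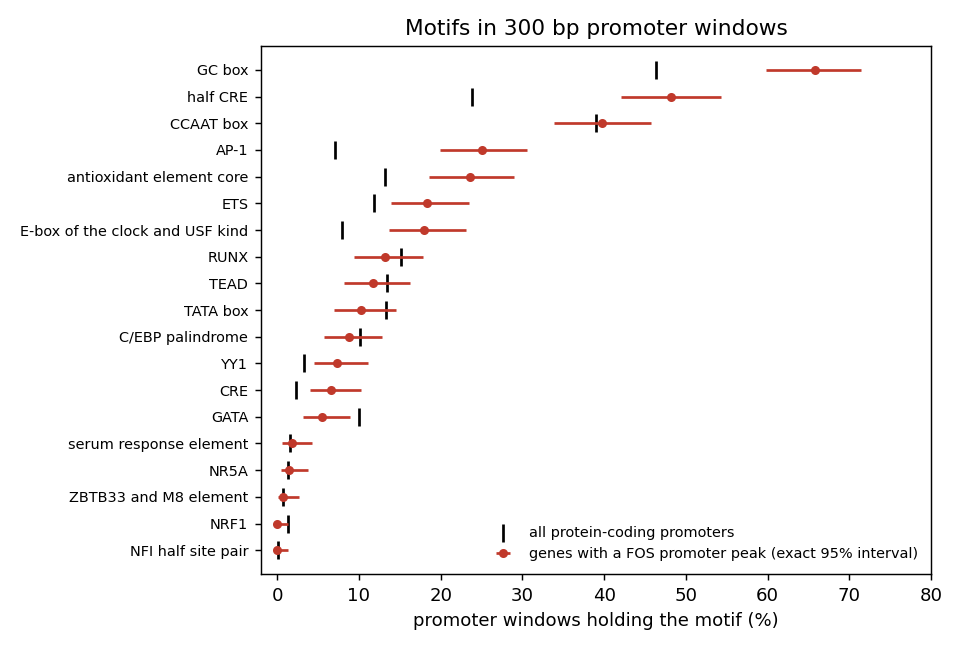
Share of 300 bp promoter windows that hold each of 19 motifs, with red points for protein-coding genes that have a FOS promoter peak (exact 95% interval, n = 272) and black ticks for all protein-coding genes. The red point for AP-1, 25.0%, stands far to the right of its tick at 7.08%, while those of the CCAAT box nearly coincide.

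Genes with a promoter peak were found on several of the lists of named genes, with only a few members on each. In the gene table as a whole, a share of 1.48% of protein-coding genes had a promoter peak. Of the 374 genes in the 17 lists of named genes, 26 did (6.95%), but these lists were chosen with earlier results on these data known, so the difference is no independent evidence. For the ovulatory response list the count was 4 of 32: Tnfaip6 (355), Star (81 at -115 bp), Cebpb (70 at -612 bp) and Ptgs2 (44 at -111 bp). Cebpb encodes a transcription factor of the luteinising follicle, and Ptgs2 the inducible cyclooxygenase that makes prostaglandins for follicle rupture. The 4 scores span most of the range of the set, from Ptgs2 near its lower quartile to Tnfaip6 near its top. A peak of any class was assigned to 20 of the 32, beside 7.58% of all protein-coding genes.

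Among genes of the AP-1 and MAF families 2 of 18 had a promoter peak, Maff (146 at -101 bp) and Fosl2 (131 at -654 bp), whose product FRA-2 is itself a partner of JUN. Other immediate early genes gave 2 of 27, Klf4 (110 at -529 bp) and Nr4a1 (99 at -88 bp). Steroid synthesis gave 2 of 27, Star and Fdxr (44 at -375 bp), the reductase that feeds electrons to the mitochondrial steroid hydroxylases. The NRF2 and antioxidant list gave 2 of 21, Srxn1 (374) and Prdx1 (127 at -151 bp), both with 2 AP-1 motifs in the peak. Thus the early response and antioxidant lists were each present through a pair of genes with scores above the median of the set.

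The cytoskeleton list had the largest share among the lists, 5 of 30: Myl12a (204), Lmna (188), the intermediate filament gene Vim (177 at -680 bp), Tpm1 (76) and the focal adhesion gene Zyx (37 at -185 bp). For the heat shock and unfolded protein response list it was 3 of 28, with Ddit3 (266), Herpud1 (109 at -164 bp), whose product serves the degradation of misfolded proteins, and Hsp90b1 (86 at -243 bp). The class of the Hsp90b1 peak names another gene, Ttc41. The chromatin list gave 3 of 37, with the histone demethylase gene Kdm6a (131 at -154 bp), Kdm3a (57 at -523 bp) and Hdac7 (51 at -653 bp). The clock list gave 2 of 20, Nr1d1 (221) and Cry2 (15), which lie at opposite ends of the score range. Autophagy and cell death gave 1 of 27, Atg5 (89 at +16 bp), and the MAP kinase list 1 of 30, Dusp7 (25 at -543 bp), a phosphatase of ERK.

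Gene families taken by symbol pattern are given beside the same background of 1.48%. The tRNA synthetases had 4 of 37, among them Lars2 (46), Iars (40) and Yars (39), all with scores below the median of the set, beside Nars (102). The respiratory chain and ATP synthase genes had 5 of 115, led by Ndufa5 (197 at +21 bp) and Atp5b (85 at -137 bp). Splicing factor genes had 3 of 31, led by Srsf2 (124 at -110 bp), and the ubiquitin-specific protease and E2 genes 5 of 101, led by Usp38 (131 at -238 bp). Ribosomal protein genes had 2 of 85, Rpl27 (105) and Rpl3 (74), RAB genes 2 of 78 and proteasome genes 1 of 48, Psmb2 (112). Translation initiation factor genes had 1 of 68, solute carriers 4 of 384, Tmem genes 3 of 249 and Zfp genes 9 of 416, led by Zfp869 (197 at -448 bp). The shares of the last 4 families were near that of all protein-coding genes, as were those of the ribosomal, RAB and proteasome genes. Counting also the gene that the class names raised the respiratory chain genes from 5 to 8. Of 1428 olfactory receptor genes none had a promoter peak.

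The marker lists gave no promoter peak: 0 of 19 granulosa markers, 0 of 13 theca and stroma markers, 0 of 11 endothelial, 0 of 13 immune and 0 of 13 oocyte markers, and 0 of 20 genes of liver, nerve and muscle. At the background of 1.48% a list of this length would hold less than 1 such gene, so these counts of 0 say nothing about the markers. Itgax, an integrin gene of dendritic cells and macrophages that is not on the immune list, had a promoter peak (105 at -256 bp) and was noticed after its value was seen. Peaks do not measure expression, so the purity of the cells was not checked.

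**Figure D5:**
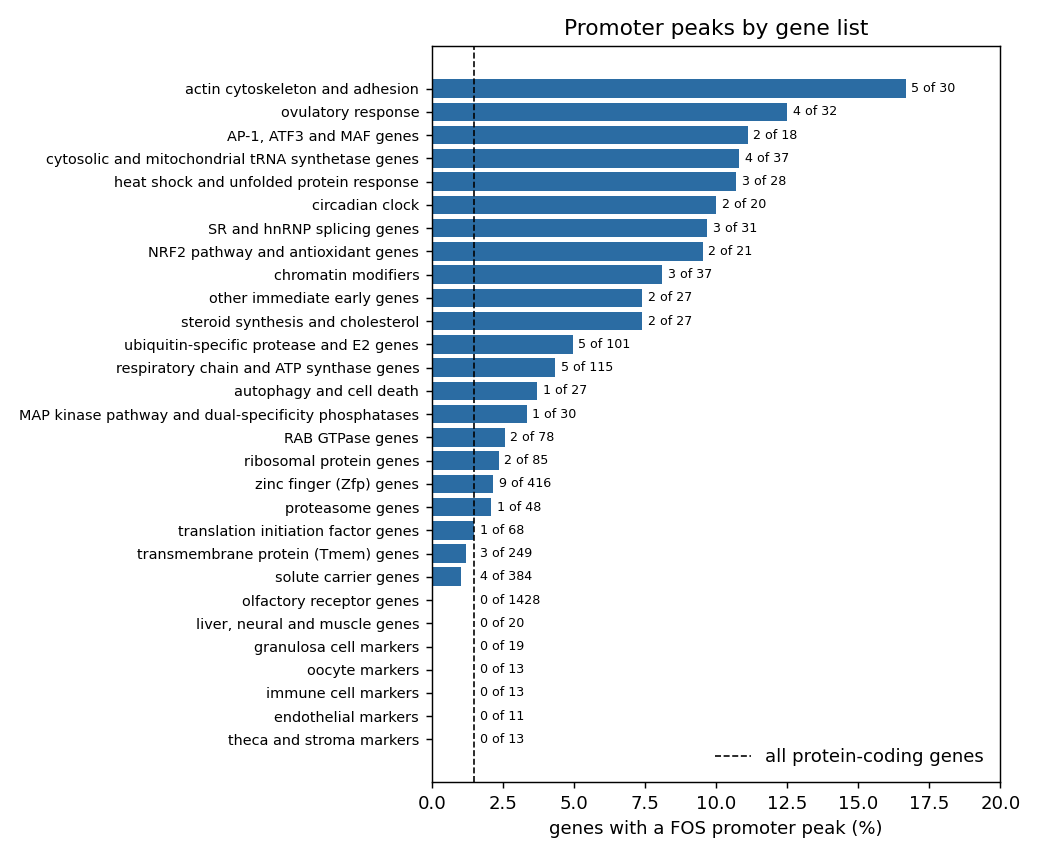
Share of each gene list with a FOS promoter peak (bars, with counts at their ends), and the 1.48% of all protein-coding genes (dashed line). The cytoskeleton list (5 of 30) and the ovulatory list (4 of 32) have the longest bars, and the marker lists, each too short to hold 1 gene at that share, have none.

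Noncoding genes were assigned to 35 promoter peaks (9.72%, interval 6.87 to 13.3%), against 337 of the 2014 other peaks (16.7%). There were 26 long noncoding RNA genes, 0.204% of those in the gene table, 6 microRNA genes, 0.489% of theirs, 2 pseudogenes and the small nuclear RNA gene Rnu11. Their scores had a median of 57 (interval 37 to 70), against 65 (interval 59 to 70) for the 325 protein-coding members. In 17 of the 35 the class itself named a protein-coding gene, and in 15 of 34 a listed protein-coding start lay within 1000 bp of the peak centre, so many of these peaks cannot be assigned to the noncoding gene alone.

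The highest noncoding scores were those of Gm15867 (185 at -30 bp), which lies inside Sertad4, and Mir5098 (184 at -879 bp). Next were 4930554I06Rik (176 at -13 bp), Mir1956 (176 at -17 bp), 4921507L20Rik (171 at -100 bp) and 3110056K07Rik (163), which lies within Arid4a. Snhg12, a host gene of small nucleolar RNAs, had 156 at -39 bp, 9330111N05Rik 141, 1110020A21Rik 90, 305 bp upstream of the start of Ppm1b, and 4930511A08Rik 89. AP-1 motifs were in the peaks of Gm15867 and of 4921507L20Rik (2 motifs). The gene table places Mir5098, Mir1195 and Gm10052 on other chromosomes than their peaks, and the gene of these 3 peaks is therefore uncertain.

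Among the microRNA members the peaks of Mir1956, Mir212 and Mir688 hold the hairpin itself. The Mir1956 peak (chr3:138526144-138526665) is centred 213 bp downstream of the listed start of Eif4e, the gene of the cap-binding protein of translation, and reaches across that start. The mature miR-1956 contains an AP-1 match at its bases 11 to 17, with its middle 34 bp from the peak centre, and 11 of 1738 mature sequences in the table (0.633%) contain one. The Mir212 peak (chr11:75173232-75173680, score 33) belongs to the cluster of miR-212 and miR-132, microRNAs known to be induced by LH in granulosa cells, and the hairpin of miR-132 begins 2 bp past the end of the peak. Their 3p arms share a seed (bases 2 to 8), which is in capitals in the last 2 sequences, and in the first sequence the capitals mark the AP-1 match.
mmu-miR-1956, chr3:138526425-138526446, plus strand: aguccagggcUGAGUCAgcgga
mmu-miR-212-3p, chr11:75173443-75173464, plus strand: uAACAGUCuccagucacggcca
mmu-miR-132-3p, chr11:75173723-75173744, plus strand: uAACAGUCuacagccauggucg

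Divergent promoters, where another listed start lay within 1000 bp upstream on the opposite strand, accounted for 54 of the 295 members with a listed start (18.3%, interval 14.1 to 23.2%). Counted by protein-coding gene it was 48 of 272 (17.6%, interval 13.3 to 22.7%), against 12.1% of all 17492 protein-coding genes with a listed start. Some members entered the class through the partner's promoter. Ppp1r15a, Cutc, Coa5, Terf2ip, Uros, Zfp189 and 1700003E16Rik were centred more than 100 bp downstream of their own start and classed to their partner. For such members the pair is part of the selection, which the set of all genes did not go through, so the shares are not like for like. The share depended on the score: it was 11.97% among members at or above the list's median score of 67 and 10.6% at or above its upper quartile of 99. The partner was protein-coding for 39 members and noncoding for 15, and Ppp1r15a and Plekha4 are each other's partner. The starts were 5 to 797 bp apart, with a median of 182 bp. The peak centre lay between the starts for 23 of the 54 members, and the peak spanned both starts for 12. Another 14 members had a partner in head-to-head overlap, where the transcripts run across each other.

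The highest-scoring pairs were Nr1d1 with Gm31862 (221), Ndufa5 with Asb15 (197), Zfp869 with Gm51532 (197), Katnal1 with Gm36446 (147) and Srsf2 with Mfsd11 (124). Cltc, the clathrin heavy chain gene, with Gm42085 (111), Klf4 with Gm12506 (110), Ptp4a1 with a noncoding partner (102), Bud31 with Pdap1 (102) and Enthd2 with Ndufaf8 (90) completed the first 10, the last tied with 1110020A21Rik and Ppm1b (90). Ptgs2 is also in a pair, with the antisense RNA gene Ptgs2os 157 bp away, and its peak is centred between the starts. Peaks at divergent promoters had a median score of 52 (interval 44 to 62), against 67 (interval 63 to 81) for the 241 others with a listed start.

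The share with AP-1 was computed for divergent and other members apart. Of the 37 with at least 100 bp covered, 5 held the motif in the peak (13.5%, interval 4.54 to 28.8%), against 63 of the 171 others (36.8%, interval 29.6 to 44.5%). Within 50 bp of the centre it was in 0 of the 18 divergent members whose central 100 bp lay within the window. That count allows a share of up to 16.7% by the rule of 3 counts (the exact interval reaches 18.5%). Among the other members read in the same way it was in 32 of 114 (28.1%). Sap30bp, divergent with Recql5, had AP-1 at -23 bp from its centre, but its central 100 bp reached past the window and it was not counted. No test was made of either difference. The following stretches upstream of Bud31, a splicing factor gene, and across the gap of 174 bp between the histone genes Hist1h2bf and H2ac7 show such peaks without AP-1, with GC box and TGACG in capitals in the first and CCAAT and TGACG in the second. The Hist1h2bf pair (score 39) was chosen after its values were seen.
Bud31, chr5:145140266-145140375, plus strand: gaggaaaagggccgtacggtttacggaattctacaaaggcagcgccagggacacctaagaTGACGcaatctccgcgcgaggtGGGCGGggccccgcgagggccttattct
Hist1h2bf, chr13:23574208-23574380, minus strand: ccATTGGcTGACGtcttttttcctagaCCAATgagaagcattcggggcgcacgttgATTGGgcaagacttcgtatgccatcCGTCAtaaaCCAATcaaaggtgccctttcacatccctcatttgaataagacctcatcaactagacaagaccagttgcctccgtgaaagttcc

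Most genes had a single FOS peak. The 360 members were assigned to 358 genes, of which 46 (12.8%) had at least 1 further peak of any class. Tomm20 had 5 peaks in all: the promoter peak (127) and intergenic peaks with scores of 223, 187, 64 and 33 at 26.479 to 121.995 kb downstream of its TSS. Arhgap18, Fosl2 and Gch1, the first enzyme of tetrahydrobiopterin synthesis, had 4 each. At Gch1 the promoter peak was the weakest (35, against 175, 44 and 37 in introns), and at Fosl2 it was the strongest (131, against 88, 66 and 60). Of the 45 genes that also had a peak outside the class, the promoter peak had the highest score in 26 (57.8%, interval 42.2 to 72.3%).

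Only Rtn4 and Midn had 2 promoter peaks. Those of Rtn4, with scores of 307 and 147, were 615 bp apart, and those of Midn, with scores of 138 and 122, were 697 bp apart. Midn encodes midnolin, which takes nuclear proteins to the proteasome. Ppp1r15a, the stress-induced phosphatase subunit GADD34, and its neighbour Plekha4 form a divergent pair with starts 62 bp apart, and their peaks (76 and 23) were 923 bp apart. Each of these peaks is classed to the other gene of the pair. In all, 13 promoter peaks had another peak within 2000 bp. By chromosome, the share of peaks that were promoter peaks was highest on chromosome 11 (37 of 173, 21.4%) and lowest on chromosome 13 (10 of 118, 8.47%), and chromosome X held 2 promoter peaks.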

How the data were processed

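The peaks were deposited by the authors as 1 table from the FOS library. Per the file headers, it came from the annotatePeaks program of HOMER and gives for each peak an interval, a peak score, a class, a distance to the nearest TSS and a nearest gene. The submitters' processing notes name the mm10 build, MACS2 2.2.7.1, BWA, deepTools 3.5.1 and Trim Galore, with no order. No source used here gives the control library, the peak threshold, a filter or the scale of the score. The score was used only to rank, filter and describe peaks within this list, and the deposited intervals and distances were used as they stand.

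Members were the peaks whose class begins with promoter-TSS. The genes of all 360 members matched a RefSeq gene table of GRCm38.p6 by accession. Listed starts and strands came from a RefSeq promoter table (27025 genes), which held 295 members, 219 with the identical start. Motif positions are those of the middle base. The members, the 32 gene lists (17 of named genes and 15 symbol families) and the 19 motifs were chosen with earlier results of these data known. One family of the lists is microRNA genes (6 of 1193 symbols had a promoter peak), and others are snoRNA host genes (1 of 18) and small nucleolar RNA genes (0 of 133).

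Genes were named by rule: the highest and lowest scores, the widest and narrowest peaks, those nearest to the TSS and to the class edges, the top members of each list, the highest noncoding and divergent promoters, and genes with more than 1 promoter peak. Others, among them Tomm20, Jmjd1c, Gch1, Ppp1r15a and Plekha4, were chosen after their values were seen. Python 3.11.15, numpy 2.4.6, scipy 1.17.1, pandas 2.3.3 and matplotlib 3.10.9 were used, and the motif, interval and pairing functions were tested on simulated data. Alternatives were the score threshold, the promoter definition, the reference start, the pair distance and the motif.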

Additional observations from a re-analysis of the deposited data

How the results depend on the processing

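When every peak centred within 1000 bp of a TSS was counted, promoter peaks were 19.3% of all peaks, 48.1% of them held the TSS, 61.0% were centred upstream and 20.2% of windows held AP-1 (25.1% over the 295 members with a listed window). Divergent promoters fell from 18.3% to 11.97% among peaks at or above the median score, to 10.6% at or above the upper quartile of scores and to 13.2% with protein-coding partners only. AP-1 was in 30.6% of windows at or above the upper quartile, in 30.5% when the CRE was counted too, and in 38.7% of members centred inside the window, an alternative added after the data were seen. The median width was 381.5 bp at or above the median score and 413 bp at or above the upper quartile. Counting the gene of the class as well, also added later, left 26 genes of the named lists with a promoter peak, but raised the respiratory chain family from 5 to 8, the tRNA synthetases from 4 to 5, the splicing genes from 3 to 4, the Zfp genes from 9 to 10, the solute carriers from 4 to 5, the microRNA genes from 6 to 7 and the small nucleolar RNA genes from 0 to 1.

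No paired analysis was possible because 1 library has a peak table. The depth is unknown, no control track was analysed here, and the spread between libraries was not measured.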
